A study of Homo sapiens with 9 samples.

Results

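The genes examined in PC3 xenografts were 10 genes of regulated secretion: the granin family and related granule proteins (SCG5, SCG2, CHGA, CHGB and VGF), the neuropeptides GAL and NTS, the prohormone convertases PCSK1 and PCSK2, and the vesicle membrane protein SYP. They were chosen by their levels in these same libraries, as neuroendocrine features of PC3, so their differences between groups are given as a description, with no p-value, and nothing is read from how many of them were called. Of the 10 genes, 9 had rows in both count tables, which share 16008 genes. PCSK2 was not analysed here. CHGB was too low to enter the fits, which left 8 genes compared between groups.

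Cells with regulated secretion package peptide precursors into dense-core granules. Granins help the granules form, convertases cut the precursors into active peptides, and a rise in calcium makes the granules fuse with the cell membrane. In prostate tissue these proteins mark the rare neuroendocrine cells and the small-cell tumors that resemble them, and chromogranin A and synaptophysin, the products of CHGA and SYP, are the stains in common use. PC3 is a human cell line from a bone metastasis of prostate cancer.

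Xenografts were formed by subcutaneous injection of PC3 cells into male NSG mice, which lack mature T, B and NK cells and retain their own stroma and myeloid cells. There were 3 libraries from mice given PBS as vehicle and 3 each titled P-DXd or T-DXd, both dosed weekly at 5 mg/kg. Per the series record, 1000000 cells were injected at 11 weeks of age and 5 cycles began at 90 mm3, whereas the study's methods differ in age, starting volume and number of cycles. P-DXd (patritumab deruxtecan) binds HER3 and T-DXd (trastuzumab deruxtecan) binds HER2, and both carry a topoisomerase I inhibitor. For all 6 treated libraries the treatment field names the conjugate that the title does not, so each group carries its title here (P-DXd-titled or T-DXd-titled). The column names of the count tables carry the conjugate of the title, and the disagreement with the treatment field is unresolved. All groups share 1 cell line, and titles give each library its own animal code.

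Total counts were 90761763 to 125538606 in PBS libraries and 54481702 to 83721486 in treated libraries, and PBS replicate 1 stood apart from the other PBS libraries, with a mean chi-square per gene of 316 and 388 against them where they differed from each other by 37.5. Levels below are CPM, counts per 1000000 of the scaled library total, and RPKM, which is CPM per kilobase of exon, is used to set genes side by side. These tables do not set apart reads that came from mouse cells, and in bulk tumor RNA fewer cells of a type and less RNA per cell cannot be told apart.

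Of the 10 genes, 7 had a promoter entry in RefSeq (GRCh38.p14). CHGA, VGF and PCSK1 are textbook targets of CREB, a factor that binds the cAMP response element (CRE), and their promoters are printed because each holds the full CRE, TGACGTCA. Those of SCG5, which had the largest difference from PBS among genes with an entry, and of NTS, which differed in the other direction, hold only the partial CRE TGACG (on either strand, also within each full CRE on both strands). Each window has 300 bases, 5′ to 3′ on the strand of the gene, and capitals mark full and partial CREs.
SCG5, chr15:32641460-32641759, plus strand: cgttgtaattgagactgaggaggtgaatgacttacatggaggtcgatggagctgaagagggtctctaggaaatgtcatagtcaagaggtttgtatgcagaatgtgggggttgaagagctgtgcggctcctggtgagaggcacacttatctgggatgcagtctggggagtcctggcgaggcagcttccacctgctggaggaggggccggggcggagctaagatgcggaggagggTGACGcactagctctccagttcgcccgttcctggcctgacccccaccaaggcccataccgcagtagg
NTS, chr12:85874045-85874344, plus strand: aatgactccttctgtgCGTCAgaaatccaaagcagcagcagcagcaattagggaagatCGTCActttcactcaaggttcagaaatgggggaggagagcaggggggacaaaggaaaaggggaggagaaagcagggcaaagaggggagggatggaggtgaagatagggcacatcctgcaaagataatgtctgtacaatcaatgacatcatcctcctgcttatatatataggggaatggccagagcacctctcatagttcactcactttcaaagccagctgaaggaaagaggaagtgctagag
CHGA, chr14:92922900-92923199, plus strand: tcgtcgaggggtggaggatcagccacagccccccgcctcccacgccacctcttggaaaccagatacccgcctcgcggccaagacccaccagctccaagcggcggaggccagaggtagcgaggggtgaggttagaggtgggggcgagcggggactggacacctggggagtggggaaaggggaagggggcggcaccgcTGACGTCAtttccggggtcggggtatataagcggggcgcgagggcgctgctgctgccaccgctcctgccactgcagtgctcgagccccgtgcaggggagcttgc
VGF, chr7:101165520-101165819, minus strand: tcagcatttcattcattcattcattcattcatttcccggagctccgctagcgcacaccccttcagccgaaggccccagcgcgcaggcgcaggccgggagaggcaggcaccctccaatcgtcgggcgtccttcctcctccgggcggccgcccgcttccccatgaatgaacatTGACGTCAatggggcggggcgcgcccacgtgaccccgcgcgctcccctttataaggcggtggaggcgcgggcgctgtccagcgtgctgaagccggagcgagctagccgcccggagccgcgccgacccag
PCSK1, chr5:96433199-96433498, minus strand: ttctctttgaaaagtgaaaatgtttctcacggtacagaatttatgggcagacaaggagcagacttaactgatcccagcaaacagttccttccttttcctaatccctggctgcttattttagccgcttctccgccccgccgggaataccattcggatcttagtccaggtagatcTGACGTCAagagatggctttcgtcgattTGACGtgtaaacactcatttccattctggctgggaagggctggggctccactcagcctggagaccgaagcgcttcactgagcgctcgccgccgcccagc
Counted from the first transcribed base as 1, with no position 0, the CRE lies at -54 to -47 in CHGA, -79 to -72 in VGF and -77 to -70 in PCSK1. Of 35116 human promoters, 1.85% hold the CRE and 24.6% hold a partial one. A second partial site of PCSK1 starts at -49, that of SCG5 starts at -17, and those of NTS start at -234 and -192. An AP-1 motif (TGANTCA, either strand, in 7.71% of promoters) was found only in SYP among these genes, at 36 to 42. A TATAAA motif (either strand, in 11.5% of promoters) was found in VGF and in a second promoter window of PCSK1. In VGF it was on the opposite strand and reads TTTATA as printed. GAL, SCG2 and CHGB had no entry.

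SCG5 was the one gene of the set expressed at a level typical of a strongly transcribed gene, and it was far lower in treated xenografts. It encodes the chaperone 7B2, which keeps the convertase PCSK2 inactive until the granule matures. SCG5 (ENSG00000166922.4, chr15:32933877-32989299 as the tables list it, on a build they do not name) was at 111, 62.3 and 58.9 CPM in PBS replicates 1 to 3. It was at 6.69, 5.14 and 3.48 CPM in P-DXd-titled replicates and at 2.97, 2.74 and 3.41 CPM in T-DXd-titled replicates. Every treated library lay below every PBS library, and the lowest PBS level was several times the highest treated level. Group means were 77.6 ± 29.4, 5.11 ± 1.61 and 3.04 ± 0.339 CPM (SD, n = 3). The log2 fold change compared with PBS was -3.91 (SE 0.35) in P-DXd-titled and -4.67 (SE 0.29) in T-DXd-titled xenografts, which is 15-fold and 25.4-fold lower. Without PBS replicate 1, which had the highest level, SCG5 stayed below PBS, and over all alternatives its log2 fold change lay between -4.16 and -3.56 in the first comparison and between -4.83 and -4.32 in the second.

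**Figure D1:**
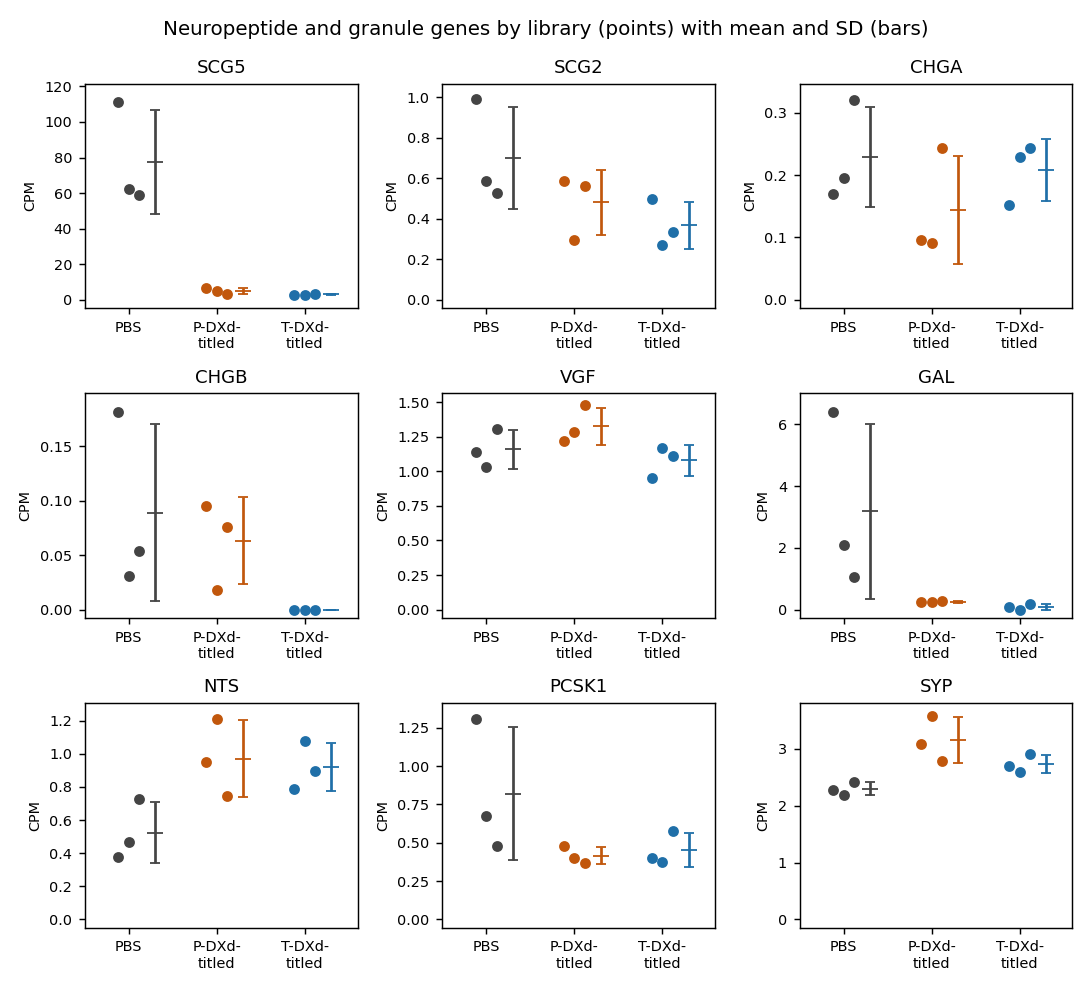
Level of the 9 genes in each library, in CPM on linear axes that start near 0; points are libraries by group and the bar beside them is the mean and SD of 3 libraries. SCG5 was at 58.9 to 111 CPM in PBS and at 2.74 to 6.69 CPM in treated libraries, GAL was at 1.06 to 6.41 CPM in PBS and at 0 to 0.289 CPM in treated libraries, and the other genes stayed under 4 CPM.

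Per length, SCG5 in PBS xenografts was at 35.3 ± 13.4 RPKM, above 91.8% of 15685 genes. It was at 2.32 ± 0.731 RPKM in P-DXd-titled xenografts, and 1.39 ± 0.154 RPKM in T-DXd-titled xenografts, above 42.6% and 35.8% of genes. SCG5 held 89.6% of the summed CPM of the 9 genes in PBS, 42.9% in P-DXd-titled xenografts, and 34.2% in T-DXd-titled xenografts. The sum itself was 86.6 CPM in PBS, 11.9 CPM in P-DXd-titled xenografts, and 8.90 CPM in T-DXd-titled xenografts, so the lower total was mainly that of SCG5.

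The neighbor of SCG5 on chromosome 15 was lower as well. ARHGAP11A (chr15:32907345-32932150, as listed), which encodes a GTPase-activating protein that peaks in dividing cells, ends 1727 bases before SCG5 starts, and GENCODE v44 annotates a readthrough gene, ARHGAP11A-SCG5, that joins them. ARHGAP11A was at 163, 98.8 and 88.3 CPM in PBS, at 19.2, 19.3 and 14.7 CPM in P-DXd-titled and at 11.6, 13 and 10.1 CPM in T-DXd-titled replicates. It fell in both comparisons (log2 fold change -2.70, SE 0.25, adjusted p 0.00151 and -3.33, SE 0.26, adjusted p 0.000508, edgeR quasi-likelihood test). SCG5 and ARHGAP11A followed each other over the 9 libraries (Pearson r = 0.993 of log2 CPM, a description, since the group difference is shared). The ratio of SCG5 to ARHGAP11A was 0.631 to 0.684 in PBS, 0.236 to 0.350 in P-DXd-titled xenografts, and 0.211 to 0.337 in T-DXd-titled libraries, so the levels did not change by the same factor. GREM1, a secreted BMP antagonist on the other side of SCG5, was at 2.52, 2.29 and 1.28 CPM in PBS, at 1.32, 0.899 and 0.821 CPM in P-DXd-titled and at 0.537, 0.350 and 0.777 CPM in T-DXd-titled replicates. In T-DXd-titled xenografts GREM1 fell by 1.87 on the log2 scale (SE 0.40, adjusted p 0.0110, edgeR) and did not pass in P-DXd-titled xenografts (-0.98, SE 0.36, adjusted p 0.0707). An antisense gene, SCG5-AS1, is also annotated over SCG5, and the sources used here do not state whether strand was used in counting. The share of SCG5 counts that came from readthrough or antisense transcripts was not tested.

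**Figure D2:**
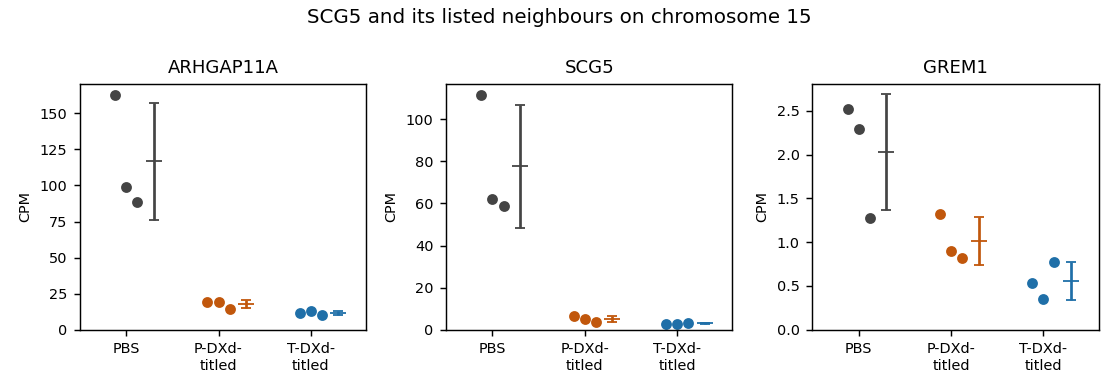
CPM of SCG5 and its listed neighbors ARHGAP11A and GREM1 in each library, in their order along chromosome 15, on linear axes; points are libraries and bars are the mean and SD of 3. ARHGAP11A was at 88.3 to 163 CPM in PBS and at 10.1 to 19.3 CPM in treated libraries, and GREM1 was at 1.28 to 2.52 CPM in PBS and at 0.350 to 1.32 CPM in treated libraries.

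The other granins were low in all groups. SCG2 (ENSG00000171951.4), the precursor of secretoneurin, had 87, 75 and 59 counts in PBS, 49, 16 and 37 in P-DXd-titled and 36, 20 and 22 in T-DXd-titled replicates. Its level was 0.7 ± 0.252 CPM in PBS, 0.480 ± 0.162 CPM in P-DXd-titled xenografts, and 0.367 ± 0.117 CPM in T-DXd-titled xenografts (SD, n = 3). T-DXd-titled libraries lay below PBS, whereas P-DXd-titled libraries overlapped PBS. The log2 fold change of SCG2 was -0.51 (SE 0.43) and -0.92 (SE 0.40) in the 2 comparisons. CHGA (ENSG00000100604.8), the precursor of several peptides and the classical neuroendocrine marker, had 5 to 36 counts in any library. CHGA was at 0.170, 0.195 and 0.320 CPM in PBS, at 0.0953, 0.0918 and 0.243 CPM in P-DXd-titled and at 0.152, 0.229 and 0.244 CPM in T-DXd-titled replicates. The 3 groups overlapped. Its log2 fold change was -0.66 (SE 0.57) in P-DXd-titled xenografts, where it was -1.26 without replicate 3, and -0.14 (SE 0.44) in T-DXd-titled xenografts, with intervals that covered 0.

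CHGB and VGF differed in how well they were measured. CHGB (ENSG00000089199.5), a granin close to CHGA, had 16, 4 and 6 counts in PBS, 8, 1 and 5 in P-DXd-titled and 0 in each T-DXd-titled replicate. A count of 0 over the T-DXd-titled group allows up to 3 counts, or 0.0141 CPM, against 0.0791 CPM for the 26 counts of PBS and 0.0686 CPM for the 14 counts of P-DXd-titled libraries. The counts of PBS and P-DXd-titled libraries were taken as exact, so only the counting error of the 0 is covered. Set so, the PBS level was 5.61-fold and the P-DXd-titled level 4.86-fold above this floor, which is not a lower limit of the difference. Beside the T-DXd-titled libraries CHGB met the minimum for listing, 5 counts in 2 libraries, only through PBS. Of the 26 PBS counts 16 came from PBS replicate 1, and without it the 10 counts left, at 0.0416 CPM, were 2.95-fold above the floor. VGF (ENSG00000128564.5), a nerve growth factor-inducible precursor, was by contrast counted well enough for narrower intervals. VGF was at 1.14, 1.03 and 1.31 CPM in PBS, at 1.22, 1.29 and 1.48 CPM in P-DXd-titled and at 0.950, 1.17 and 1.11 CPM in T-DXd-titled replicates. Its log2 fold change was 0.21 (SE 0.27, 95% interval -0.41 to 0.83) and -0.10 (SE 0.24, 95% interval -0.67 to 0.47) compared with PBS.

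The neuropeptides GAL and NTS went in opposite directions. GAL (ENSG00000069482.6, chr11:68451247-68458643 as listed) encodes galanin, a peptide of nerve fibers and endocrine cells that acts through 3 G protein-coupled receptors. GAL was at 6.41, 2.1 and 1.06 CPM in PBS, a spread as large as the mean (3.19 ± 2.83 CPM, SD, n = 3). It was at 0.238, 0.239 and 0.289 CPM in P-DXd-titled replicates and at 0.0964, 0 and 0.198 CPM in T-DXd-titled replicates. All 6 treated libraries lay below all PBS libraries. The log2 fold change of GAL was -3.62 (SE 0.70) in P-DXd-titled and -5.03 (SE 1.06) in T-DXd-titled xenografts. Without PBS replicate 1, which had 564 GAL counts, these were -2.62 and -4.03, and without T-DXd-titled replicate 1, 2 or 3 the second was -5.03, -4.42 or -6.01.

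NTS (ENSG00000133636.6, chr12:86268073-86276770 as listed), the precursor of neurotensin, a gut and brain peptide that stimulates growth of many epithelial cells, was low and somewhat higher in treated xenografts. It was at 0.375, 0.468 and 0.730 CPM in PBS, at 0.953, 1.21 and 0.745 CPM in P-DXd-titled and at 0.785, 1.08 and 0.899 CPM in T-DXd-titled replicates. The lowest treated library was just above the highest PBS library. The log2 fold change of NTS was 0.89 (SE 0.38) and 0.81 (SE 0.34) in the 2 comparisons, and 0.84 (SE 0.29) with all 6 treated libraries. This last value was 0.66 without PBS replicate 1, 0.76 without PBS replicate 2, and 0.81 without T-DXd-titled replicate 2.

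PCSK1 (ENSG00000175426.6, chr5:95726119-95769847 as listed) encodes the convertase PC1/3, which makes the first cuts in prohormones. PCSK1 was at 1.31, 0.671 and 0.481 CPM in PBS, at 0.476, 0.404 and 0.365 CPM in P-DXd-titled and at 0.399, 0.377 and 0.579 CPM in T-DXd-titled replicates. P-DXd-titled libraries lay just below the lowest PBS library, whereas T-DXd-titled replicate 3 exceeded it, so that group overlapped PBS. With all 6 treated libraries its log2 fold change was -0.91 (SE 0.33), and without PBS replicate 1 it was -0.40. SYP (ENSG00000102003.6, chrX:49044269-49056718 as listed), which encodes synaptophysin of small synaptic-like vesicles rather than dense-core granules, had 183 to 281 counts in every library. SYP was at 2.27, 2.19 and 2.42 CPM in PBS, at 3.07, 3.58 and 2.78 CPM in P-DXd-titled and at 2.69, 2.6 and 2.91 CPM in T-DXd-titled replicates. All treated libraries were above all PBS libraries, by a small step, with log2 fold changes of 0.47 (SE 0.22) and 0.25 (SE 0.18).

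**Figure D3:**
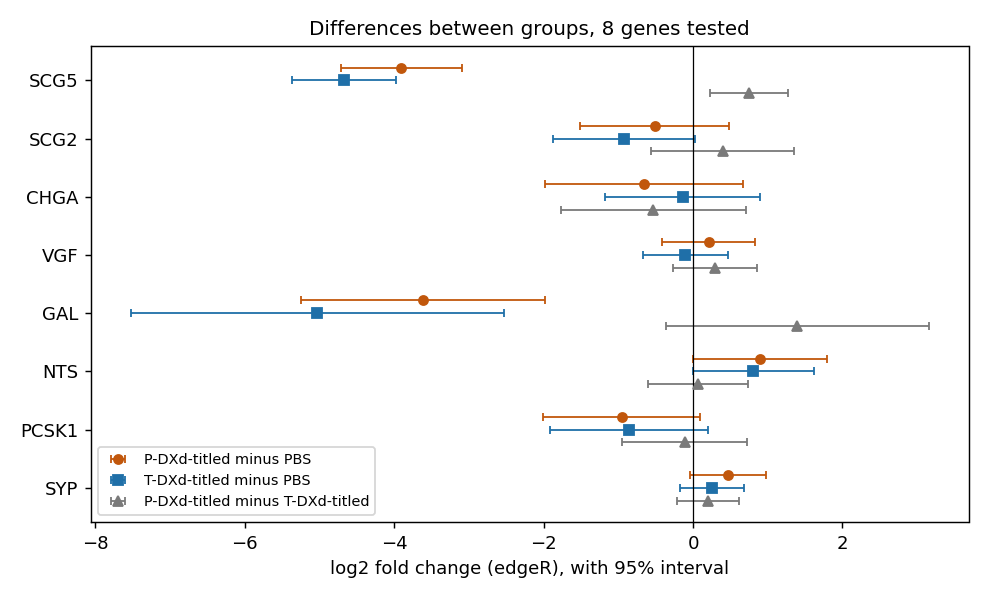
Log2 fold change of the 8 genes fitted, from edgeR, with its 95% interval, for P-DXd-titled minus PBS (circles), T-DXd-titled minus PBS (squares) and P-DXd-titled minus T-DXd-titled xenografts (triangles). Against PBS, SCG5 lay at -3.91 and -4.67 and GAL at -3.62 and -5.03, whereas the other 6 genes lay between -0.95 and 0.89.

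For genes in general, a call asked for an adjusted p of at most 0.05 and a fold change of at least 1.5, and the counts for this set are set beside the share of all genes only to place them. In P-DXd-titled xenografts 2 of the 8 genes, SCG5 and GAL, were called lower, where 13.8% of all 14945 genes were, and 0 were called higher, where 11.2% of all genes were. In T-DXd-titled xenografts the same 2 genes were called lower, where 15.5% of 14915 genes were, and 0 were called higher, where 13.1% were. With all 6 treated libraries SCG5, GAL and PCSK1 were called lower (17.1% of 15070 genes) and NTS was called higher (15.2%). All treated libraries were below all PBS libraries for 2 of the 8 genes, as for 25.5% of all genes, and above them for 2 of the 8, SYP and NTS, as for 25.0% of all genes. The median log2 fold change of the 8 genes was -0.59 for P-DXd-titled minus PBS and -0.50 for T-DXd-titled minus PBS, beside -0.0053 and -0.019 over all genes. Both comparisons share the PBS libraries, and since these levels chose the genes nothing is read from these counts.

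The order of levels per length changed with treatment. In PBS xenografts it ran from SCG5 and GAL (2.45 ± 2.18 RPKM) through VGF (0.432 ± 0.0524), NTS (0.337 ± 0.118), SYP (0.329 ± 0.0166), SCG2 (0.271 ± 0.0977) and PCSK1 (0.153 ± 0.0807) to CHGA (0.0756 ± 0.0266) and CHGB (0.0200 ± 0.0183 RPKM). In this order each gene differed from the next by less than the sum of their SDs, except SCG5 from GAL and CHGA from CHGB. In P-DXd-titled xenografts GAL stood below SYP, at 0.196 ± 0.0225 RPKM, beside SCG2 at 0.186 ± 0.0628 RPKM. In T-DXd-titled xenografts GAL stood below SCG2 and PCSK1, at 0.0755 ± 0.0762 RPKM, against PCSK1 at 0.0843 ± 0.0207 RPKM. NTS was second in both treated groups, at 0.624 ± 0.150 and 0.592 ± 0.0944 RPKM. In P-DXd-titled xenografts NTS, VGF and SYP were not separated by their SDs, nor were GAL and SCG2 or PCSK1, CHGA and CHGB in their order. In T-DXd-titled xenografts VGF and SYP were not separated, nor were SCG2, PCSK1, GAL and CHGA in their order.

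**Figure D4:**
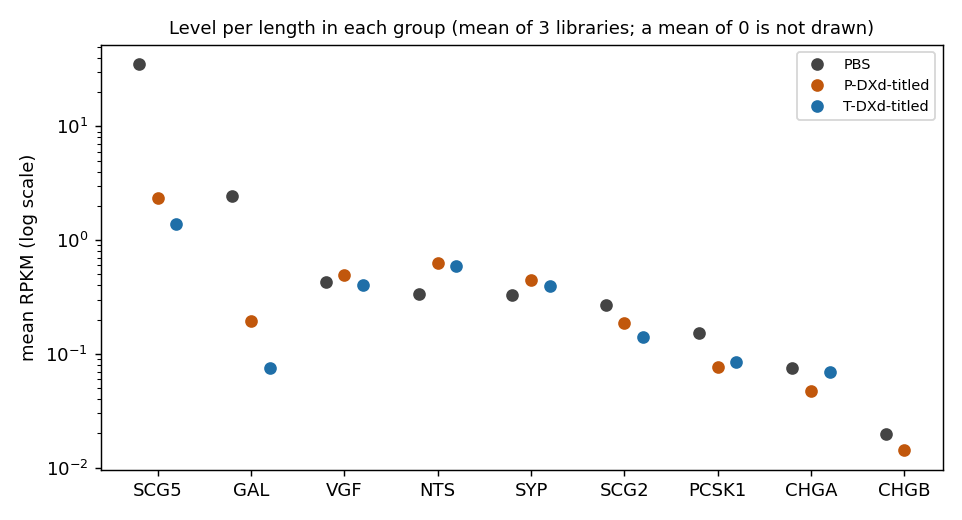
Mean RPKM of the 9 genes in each group on a log scale, ordered by the PBS level; each point is the mean of 3 libraries, and CHGB in T-DXd-titled xenografts, at 0, is not drawn. SCG5 led in all groups, at 35.3, 2.32 and 1.39 RPKM, and genes other than SCG5 and GAL were under 0.7 RPKM.

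The label of these genes as neuroendocrine features of PC3 was checked against defining markers. CHGA, at 0.0756 RPKM, lay above only 12.2% of genes in PBS, CHGB above 3.97% and SYP above 22.9%, and the neuroendocrine regulators INSM1 and NEUROD1 and the marker UCHL1 were not analysed here. By their levels the data go against this label for the genes of the set other than SCG5, and the set is named here by its genes. For SCG5 a high level in PBS does not by itself bear out the label. ENO2, the neuron-specific enolase that glycolytic tumors also express, was at 15.4, 49.4 and 49.0 CPM in PBS and at 15.9 to 22.6 CPM in treated libraries. REST, the repressor of neuronal genes, was well expressed at 47.7 to 60.1 CPM in all 9 libraries.

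The titled groups were then compared directly with each other, over 8 genes with p-values adjusted over all 14653 genes tested. None of the 8 was called (edgeR), beside 0.0273% (4 genes) of all genes, and DESeq2 also called 0 of them. SCG5 was higher in P-DXd-titled than in T-DXd-titled xenografts by a log2 fold change of 0.75 (SE 0.23, 95% interval 0.23 to 1.27). It was the only one of the 8 with an unadjusted p under 0.05, a limit that 540 of all genes (3.69%) passed. GAL differed by 1.39 (SE 0.79, 95% interval -0.36 to 3.15), a value that was 0.80 without T-DXd-titled replicate 2 and 2.37 without replicate 3. The intervals were narrower for SYP (0.20, 95% interval -0.21 to 0.62), VGF (0.30, -0.26 to 0.86) and NTS (0.07, -0.60 to 0.74), and wider for PCSK1 (-0.11, -0.96 to 0.73), SCG2 (0.40, -0.56 to 1.36) and CHGA (-0.53, -1.77 to 0.71). Apart from that of SCG5, these intervals covered 0.

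The receptors that bind these peptides were measured in the same libraries. Of 13 receptor genes, 9 were tested, and with all 6 treated libraries 1 rose and 3 fell (edgeR, adjusted over all 15070 genes). Of all genes 15.2% were called higher and 17.1% lower. The median log2 fold change of the 9 receptor genes was -0.14 beside -0.014 over all genes. NTSR1, the high-affinity neurotensin receptor, was at 0.727, 1.84 and 0.561 CPM in PBS, at 0.262, 0.0734 and 0.198 CPM in P-DXd-titled and at 0.468, 0.215 and 0.259 CPM in T-DXd-titled replicates. NTSR1 fell (log2 fold change -2.07, SE 0.49, adjusted p 0.00437, edgeR), and without PBS replicate 2 its value was -1.37. Its ligand NTS thus had its higher levels in the libraries where NTSR1 had its lower ones. SORT1, which encodes sortilin, a sorting receptor that also binds neurotensin, rose from 94.4 ± 19.3 CPM to 174 to 189 CPM in treated libraries (0.94, SE 0.11, adjusted p 7.76e-05). SORCS1, a sortilin relative, fell from 5.44, 4.54 and 1.08 CPM in PBS to 0.0596 to 0.381 CPM (-3.90, SE 0.55, adjusted p 0.000203). C1QBP, a mitochondrial protein described to bind a VGF peptide, fell from 188 ± 55.1 CPM to 103 to 116 CPM (-0.78, SE 0.13, adjusted p 0.000739), and without PBS replicate 1 the value was -0.51, under the fold minimum.

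The remaining receptors did not pass. The galanin receptor GALR2 was low, at 0.223 to 0.511 CPM in PBS and 0.345 to 0.632 CPM in treated libraries (0.54 on the log2 scale, SE 0.35, adjusted p 0.211, edgeR). C3AR1 and HSPA8, described as binding partners of VGF peptides, had log2 fold changes of 0.04 (SE 0.31) and -0.17 (SE 0.13). SORL1 and SORCS2 had log2 fold changes of -0.14 (SE 0.37) and 0.34 (SE 0.32), with PBS replicate 1 far below the other PBS libraries for SORL1 (42.9 against 196 and 230 CPM) and SORCS2 (5.59 against 20.0 and 22.2 CPM). GALR1, GALR3, NTSR2 and SORCS3 were not analysed here.

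Among granins and genes that process prohormones, PCSK1N, CPE and HID1 rose. Of 27 genes, 25 were tested, 5 rose and 1 fell, so that 24% were called in either direction, with a median log2 fold change of 0.29. Of all genes 15.2% were called higher and a further 17.1% lower, and nothing is read from the gap, which was not tested. PCSK1N, which encodes proSAAS, an inhibitor of the convertase made by PCSK1, was at 27.0, 50.9 and 66.4 CPM in PBS and at 123 to 142 CPM in the 6 treated libraries, with no overlap (1.51, SE 0.22, adjusted p 0.000253, edgeR). CPE, the carboxypeptidase that trims peptides after the convertases, rose from 1.57, 4.63 and 1.70 CPM to 4.86 to 6.35 CPM (1.07, SE 0.32, adjusted p 0.0148). HID1, a protein of the trans-Golgi network needed for granule formation, rose from 12.0, 48.8 and 57.6 CPM to 89.6 to 98.3 CPM (1.25, SE 0.37, adjusted p 0.0136). For CPE the adjusted p was 0.0543 without PBS replicate 3, and the log2 fold change was 1.76 without PBS replicate 2. The inhibitor PCSK1N was thus higher in treated libraries in which the convertase PCSK1 was at 0.365 to 0.579 CPM. With either conjugate alone, 1 gene of this list rose and 1 fell. Of all genes 11.2% were called higher and 13.8% lower in P-DXd-titled, and 13.1% and 15.5% in T-DXd-titled xenografts.

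**Figure D5:**
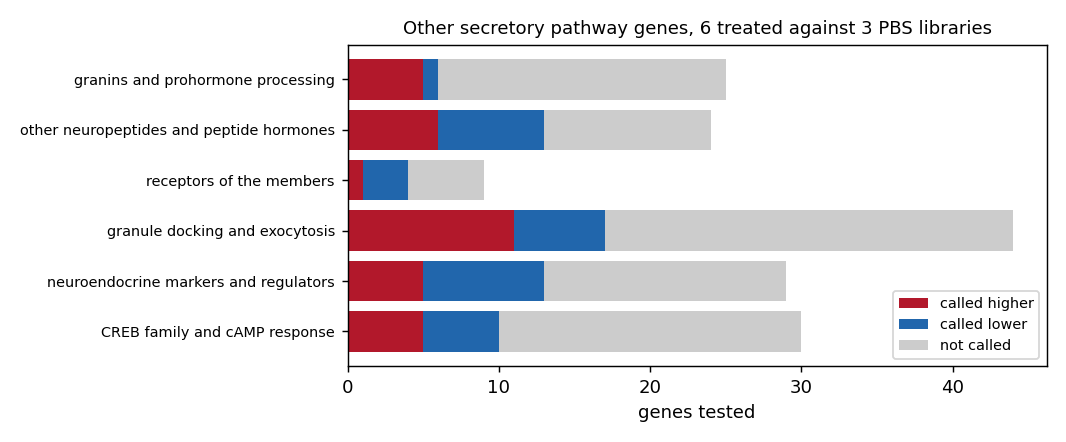
Number of genes tested in each list of other secretory pathway genes, 6 treated against 3 PBS libraries, split into called higher (red), called lower (blue) and not called (gray). Granule docking and exocytosis had 11 higher and 6 lower of 44, granins and prohormone processing 5 and 1 of 25, and neuroendocrine markers and regulators 5 and 8 of 29. Of all genes 15.2% were called higher and 17.1% lower.

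Other peptide hormones changed in both directions. Of 51 genes, 24 were tested, 6 rose and 7 fell, so that 54.2% were called in either direction, with a median log2 fold change of -0.48. Over all genes 15.2% were called higher and a further 17.1% lower. STC1, the calcium-regulating hormone stanniocalcin, was at 12.0, 46.1 and 55.6 CPM in PBS and at 1.43 to 4.12 CPM in treated libraries (-3.59, SE 0.40, adjusted p 4.85e-05, edgeR). UCN2, a peptide of the corticotropin-releasing family, fell from 8.94, 4.28 and 3.06 CPM to 0.286 to 1.02 CPM (-3.31, SE 0.43, adjusted p 0.000118). AGT, the angiotensin precursor, rose from 0, 0.890 and 1.05 CPM to 4.51 to 6.95 CPM (3.26, SE 0.75, adjusted p 0.00384). ADM2, a peptide related to adrenomedullin, rose from 0.125, 1.15 and 2.11 CPM to 6.94 to 12.5 CPM (2.99, SE 0.60, adjusted p 0.00181), with a value of 3.78 without PBS replicate 3. On the log2 scale each of these 4 differences was larger in size than that of NTS (0.84) and smaller than that of GAL (-4.17). PBS replicate 1 was the lowest PBS library for STC1, AGT and ADM2 and the highest for UCN2, and every treated library lay outside the PBS range for all 4.

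Genes of granule docking and exocytosis also changed in both directions. Of 51 genes, 44 were tested, 11 rose and 6 fell, so that 38.6% were called in either direction, with a median log2 fold change of 0.27. Over all genes 15.2% were called higher and a further 17.1% lower. The largest change was that of RIMS1, a scaffold of the release site, named after its values were seen and given as a description. RIMS1 was at 0.784, 0.359 and 0.240 CPM in PBS and at 0 to 0.0596 CPM in treated libraries (-3.85, SE 0.68). With 69, 46 and 27 counts in PBS and 0 to 5 in treated libraries, it met the minimum for listing only through PBS. PTPRN of this list, also named after its values were seen, fell by nearly as much (-3.85, SE 0.56). At a mean count of 100 or more, the 4 largest changes were rises. UNC13A, which primes vesicles for fusion, rose from 0.500, 1.12 and 1.13 CPM to 2.28 to 4.17 CPM (1.81, SE 0.30, adjusted p 0.000501, edgeR). SYT11 and SYT7, synaptotagmins of vesicle fusion, rose by 1.43 (SE 0.27, adjusted p 0.00125) and 1.11 (SE 0.21, adjusted p 0.00114) on the log2 scale, SYT7 from 23.2, 46.3 and 50.4 CPM to 73.0 to 96.8 CPM. SYNGR3, a synaptic vesicle protein related to synaptophysin, rose by 1.2 (SE 0.35, adjusted p 0.0139), beside 0.36 (SE 0.16) for SYP itself.

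Among neuroendocrine markers and regulators 29 of 46 genes were tested, 5 rose and 8 fell, with a median log2 fold change of -0.27. Called in either direction were 44.8%, where 15.2% of all genes were called higher and a further 17.1% lower. AURKA and EZH2, which are active in dividing cells as well as in neuroendocrine tumors, fell by 2.41 (SE 0.20, adjusted p 7.77e-06, edgeR) and by 1.42 (SE 0.17, adjusted p 6.41e-05) on the log2 scale. FOXA2, a forkhead factor found in neuroendocrine prostate tumors, fell from 7.76, 4.63 and 2.59 CPM to 0.713 to 2.31 CPM (-1.72, SE 0.36, adjusted p 0.00243). DPYSL3 and ENO2 fell by 1.29 (SE 0.40, adjusted p 0.0185) and by 0.97 (SE 0.28, adjusted p 0.0134). The call on DPYSL3 was lost without PBS replicate 1 (-0.42), and that on ENO2 without PBS replicate 2 (-0.74) or 3 (-0.75). NCAM1 (0.55, SE 0.31, adjusted p 0.147) and REST (-0.06, SE 0.08, adjusted p 0.571) did not pass.

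The CREB family and its targets, the list that fits the CREs printed above, had 5 genes higher and 5 lower of 30 tested, with a median log2 fold change of -0.01. AREG, an EGFR ligand induced by cAMP, fell from 7.89, 2.29 and 1.5 CPM to 0.587 to 1.05 CPM (-2.31, SE 0.43, adjusted p 0.00119, edgeR), and by less without PBS replicate 1 (-1.27). NR4A1, an immediate-early nuclear receptor, fell by 1.18 (SE 0.25, adjusted p 0.00261). CREB3L1, a membrane-bound factor of secretory cells, rose from 7.92, 10.3 and 12.3 CPM to 19.0 to 36.0 CPM (1.46, SE 0.20, adjusted p 0.000153). PRKAR2B, a regulatory subunit of protein kinase A, rose by 0.94 (SE 0.24, adjusted p 0.00766). Over all 6 lists 33 genes rose and 30 fell of 161 tested, so that 39.1% were called in either direction. Of all genes 15.2% were called higher and a further 17.1% lower. Without PBS replicate 1, 32 rose and 28 fell. Leaving out P-DXd-titled replicate 2 gave 32 and 30. In P-DXd-titled xenografts 23 rose and 24 fell of 161, beside 11.2% higher and 13.8% lower of all genes. This total of 47 was 23 without P-DXd-titled replicate 2 and 24 without replicate 3. In T-DXd-titled xenografts 24 rose and 24 fell of 160, beside 13.1% higher and 15.5% lower of all genes. Between the conjugates 0 of 155 were called, beside 0.0273% of all genes.

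Genes whose pattern over the 9 libraries was most like that of SCG5, GAL and SYP were taken from 12472 genes by Pearson r of log2 CPM, as a description. For SCG5 these were POLQ, a DNA polymerase of end joining, NCAPD3, a condensin subunit, and SGOL2, a protector of centromere cohesion (r = 0.997 for each). POLQ was at 50.3, 34.2 and 32.4 CPM in PBS and at 4.89 to 7.21 CPM in treated libraries. For GAL they were LY6K (r = 0.971), FOXA2 and FANCB (r = 0.970 each). For SYP they were PPP6C (r = 0.963), YTHDF3 (r = 0.956) and EMC4 (r = 0.952), and PPP6C was at 57.1 to 58.6 CPM in PBS and at 63.1 to 71.7 CPM in treated libraries. These libraries share the group difference, and treated ones share their shallower depth.

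Markers of other cells were set beside these results. Their counts of genes that rose or fell are with all treated libraries, where 15.2% of all genes were called higher and 17.1% lower. The 8 genes listed for PC3 cells were KRT8, KRT18, KRT19, EPCAM, CDH1, VIM, CD44 and FOSL1, which are not all epithelial markers. They summed to 2894 to 3688 CPM in PBS, 4166 to 4782 CPM in P-DXd-titled xenografts, and 4339 to 4758 CPM in T-DXd-titled libraries. Of these 8 genes 2 rose and 1 fell, and VIM and CD44 overlapped between treated and PBS libraries. KRT8 was at 407 to 517 CPM in PBS and at 1038 to 1273 CPM in treated libraries, whereas FOSL1 was at 127 to 231 and at 47.0 to 66.0 CPM. Of 9 genes of peripheral neurons and chromaffin cells, 7 were in both tables and 4 were tested, of which 0 rose and 2 fell, and PHOX2A, a defining factor of these cells, was under 0.1 CPM in every library. TH, the rate-limiting enzyme of catecholamine synthesis, was at 4.71, 3.63 and 3.45 CPM in PBS and at 0.377 to 0.661 CPM in treated libraries. GAP43 and NEFM of this list were also lower in every treated library than in every PBS library, as were 25.5% of all genes tested. NEFM had 11 to 14 counts in PBS and met the minimum for listing only there. PHOX2A, PRPH, NEFH and MAPT overlapped between treated and PBS libraries. The 7 genes summed to 12.8 to 17.7 CPM in PBS, 8.64 to 10.2 CPM in P-DXd-titled xenografts, and 9.36 to 10.6 CPM in T-DXd-titled libraries. Schwann cell genes (6 of 7 in both tables, 2 rose and 1 fell) summed to 40.6 to 54.5 CPM in PBS and 59.8 to 76.8 CPM in treated libraries. Macrophage genes (7 of 8, 5 rose) summed to 7.19 to 7.99 CPM and 20.3 to 41.3 CPM. Fibroblast genes (10 of 10, 5 rose) summed to 1058 to 2062 CPM and 1226 to 2226 CPM. Endothelial genes (5 of 6, 1 rose) summed to 4.66 to 9.73 CPM and 6.22 to 10.9 CPM. Skeletal muscle genes (8 of 8, 7 rose) summed to 6.93 to 39.0 CPM in PBS and 57.1 to 192 CPM in treated libraries, apart from 3147 CPM in P-DXd-titled replicate 2. The part of these cells in the levels of GAL, NTS, SYP and the genes that changed was not tested.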

How the data were processed

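RNA-Seq was performed on total RNA of 9 PC3 xenografts with mRNA libraries. Per the study's methods, the authors used Cutadapt for trimming, STAR for alignment and featureCounts for counting, and raw counts per gene are what was deposited. Per the labels the build was GRCh38.p13, but of 15869 identifiers shared with GENCODE v44 only 44 matched its coordinates, so positions are as listed. The tables held 16098 and 16114 genes, 16008 of them in both with identical PBS counts, and each listed gene was protein coding with at least 5 counts in at least 2 libraries. All sample columns were used (0 left out).

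Counts were tested with edgeR 4.0.16 in R 4.3.3 (TMM, filterByExpr, two-sided quasi-likelihood F test, Benjamini-Hochberg adjustment over all genes tested). A gene was called at an adjusted p of at most 0.05 and a fold change of at least 1.5, the thresholds of the study, which used DESeq2. Each conjugate was fitted with PBS, and the conjugates with each other, on 6 libraries, and all treated against PBS on 9. CPM used TMM-scaled library sizes, log2 CPM a prior count of 2, and RPKM the exon union of GENCODE v44, known for 15685 genes. Groups came from the titles. Replicates of a group differed by a mean chi-square per gene of 17.2 to 388, so no pair was a duplicate. P-values measure the spread between these libraries. Intervals cover 95% limits of the fit, and floors cover the counting error of a count of 0 only.

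The genes and all lists were chosen with earlier results of these data known. Named were the 10 genes, up to 4 called genes per list (largest change with all treated libraries, mean count 100 or more), all receptors, a fixed set of neuroendocrine genes, and the 3 genes most like each member of that mean count. Some genes that this rule names are not reported here, though they count among the genes of their lists. The method was tested on simulated data. Alternatives were DESeq2 1.42.0, RLE size factors, no filter, at least 10 counts in every library, glmTreat, no fold minimum, 1 fit of all 9 libraries, and each library left out in turn. Promoters and motif shares came from RefSeq, GRCh38.p14.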

Additional observations from a re-analysis of the deposited data

How the results depend on the processing

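Calls on the 8 genes against PBS rest on the levels that chose them and are given as counts only. The number of the 8 genes called was 1 instead of 2 in T-DXd-titled xenografts with at least 10 counts in every library, since GAL then left the test. Under glmTreat it was 2 instead of 4 with all treated libraries. Leaving out 1 library each gave 2 in every case for P-DXd-titled, 1 to 3 for T-DXd-titled and 2 to 4 for all treated xenografts. The low values came without T-DXd-titled replicate 1 in the second comparison and without PBS replicate 1 or T-DXd-titled replicate 2 in the third. Under glmTreat the genes called over all 6 lists were 20, 24 and 37, instead of 47, 48 and 63, in P-DXd-titled, T-DXd-titled and all treated xenografts. Leaving out 1 library each gave 23 to 52, 32 to 62 and 58 to 66. glmTreat asks for more by its construction, and for the other settings the cause was not tested.

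Signs turned only for values that had not passed, when 1 library was left out. Between the conjugates NTS ranged from -0.11 to 0.23 on the log2 scale, with -0.03 without T-DXd-titled replicate 1, and PCSK1 ranged from -0.23 to 0.10. With all treated libraries C3AR1 was -0.04, -0.14 and -0.10 without PBS replicate 2, PBS replicate 3 or P-DXd-titled replicate 3 (range -0.14 to 0.36), HSPA8 ranged from -0.257 to 0.029, REST from -0.094 to 0.025, SORCS2 from -0.055 to 0.66 and SORL1 from -0.58 to 0.25, with 0.05 without PBS replicate 2. In comparisons with PBS, CHGA ranged from -0.30 to 0.18 in T-DXd-titled xenografts and VGF from -0.03 to 0.15 with all treated libraries, both within the spread between libraries. Genes whose call was lost without 1 library are given beside their results. No paired analysis was possible because the labels give animal codes and no replicate numbers shared between groups. Depth limited CHGB, CHGA, SCG2, PCSK1 and GAL in treated libraries, which had fewer than 50 counts there.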
